A study of Mus musculus with 5 samples.

Results

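The sarcomere and cytoskeleton gene families described here are 38 genes for actins, actin-binding proteins, myosins, tropomyosins, troponin T, tubulins, keratins and ankyrin-repeat proteins, measured in mouse ventricles that have or lack the RNA-binding protein Celf1. The deposited values carry no gene names, so a gene was named where its FPKM matched, to 2 decimals, an entry in a supplementary table of changed genes, and a member was then taken by the first letters of its symbol (Acta, Actc, Actn, Tnn, Tpm, Myh, Myl, Myo, Mybp, Pdlim, Lmod, Fln, Tub, Krt, Dst, Ank or Spt), leaving out Tnni1. FPKM are fragments scaled to transcript length and library size. That table lists only genes that the authors tested as changed. All 961 genes listed for PN3 and 1995 of 1998 genes read for development matched 1 gene, so that 2634 of 28416 genes had a name and 38 of these were members. Of the members, 9 were listed for PN3 alone, 20 for development alone and 9 for both.

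The libraries came from cardiac ventricles of male mice of a background labelled mixed 129v/BL6, with the atria and the blood removed. At postnatal day 3 (PN3) there were 2 Celf1 -/- and 2 Celf1 +/+ libraries, and at postnatal day 38 (PN38) there was 1 Celf1 +/+ library and none of Celf1 -/-. No agent was given, the deletion was constitutive and not limited to heart muscle, and littermates served for the comparison of genotypes, per the methods. Labels do not say whether a library was 1 animal or a pool, and p-values measure the spread between these libraries only. Values in the PN38 library have no replicate check, and its spread was taken from the PN3 libraries.

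Because the listing was made on the same libraries, the values that chose a member are given as a description, with no test. For members listed for PN3 this holds for the genotype difference, and for members listed for development it holds for the difference between PN38 and PN3. The developmental listing was available only in part, up to a ratio of PN38 to PN3 of 0.4276. Genes whose level was higher at PN38 were therefore named only where they were also listed for PN3. Adult partners of members, such as the alpha-myosin heavy chain, were not analysed here. Myh7b, the member just inside that limit, had a ratio of 0.422, and Tpm3, the nearest outside it, 0.535. In the PN3 listing Tpm2 had the smallest fold, 1.24, while Myl4, which was not listed, had a larger 1.56.

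In the heart, force is made by thick filaments of myosin heavy and light chains that pull on thin filaments of actin, tropomyosin and troponin, which are anchored at Z-discs by alpha-actinin. Around birth many of these proteins are replaced by adult isoforms from other genes. In the mouse ventricle the beta-myosin heavy chain gives way to the alpha form, and slow skeletal troponin I to cardiac troponin I. Microtubules, made of alpha- and beta-tubulin dimers, serve division in newborn cardiomyocytes and transport and stiffness in adult ones, and keratins are intermediate filament proteins of epithelia. Celf1 binds RNA in the nucleus and the cytoplasm, where it acts on splicing and on mRNA decay.

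Celf1 mRNA measured 2.61 and 3.03 FPKM in the Celf1 -/- libraries, 58.4 and 57.8 FPKM with the intact gene at PN3 and 28.4 FPKM at PN38, so the genotype labels held in every library. Total expected counts lay between 108044284 and 139769909 fragments per library. Ryr2, the calcium release channel of heart muscle and part of the ventricular list, measured 75.1 and 73.9 FPKM in Celf1 -/-. It measured 107.8 and 110.1 FPKM in Celf1 +/+ at PN3 and 130 FPKM at PN38. Of the 10 genes of the ventricular list 5 had a name, and all 5 were lower in both Celf1 -/- libraries, the contrast for which they were listed. They summed to 373 and 379 FPKM in Celf1 -/-, against 520.0 and 567 FPKM in Celf1 +/+. Most of the 5 are not specific to ventricular muscle, so their sum is not a measure of ventricular content. Fibroblast collagens and related genes, 8 of 9 of them named, summed to 1941 to 2392 FPKM at PN3 and 744 FPKM at PN38. Red blood cell genes, 5 of 6 named, summed to 2296 FPKM in Celf1 -/- replicate 1 and 4902 FPKM in replicate 2, against 7221 to 7487 FPKM in Celf1 +/+ at that age. In whole ventricle, fewer cells of a type and less RNA per cell cannot be told apart.

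At PN38 the level lay below both Celf1 +/+ libraries at PN3 in 34 of 38 members, above both in Tuba8, Myl1 and Ankrd1, and between them in Tpm2. Over the 12816 genes tested it lay below both in 69.9% and above both in 25.7%, but 29 of the members were listed for this difference, so that the members' count is set by the listing. The scale matters for this contrast, since the median log2 ratio of all genes was -0.46 in FPKM and -0.02 in TMM-normalized counts. Log2 fold changes below are differences in TMM-normalized counts, while ratios and folds are of mean FPKM. A standard error (SE), where given, is the size of the log2 fold change divided by the square root of the F statistic of edgeR's quasi-likelihood test. Where levels of a gene follow each other without labels, they are given for Celf1 -/- replicates 1 and 2, then Celf1 +/+ replicates 1 and 2 at PN3, then PN38.

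**Figure D1:**
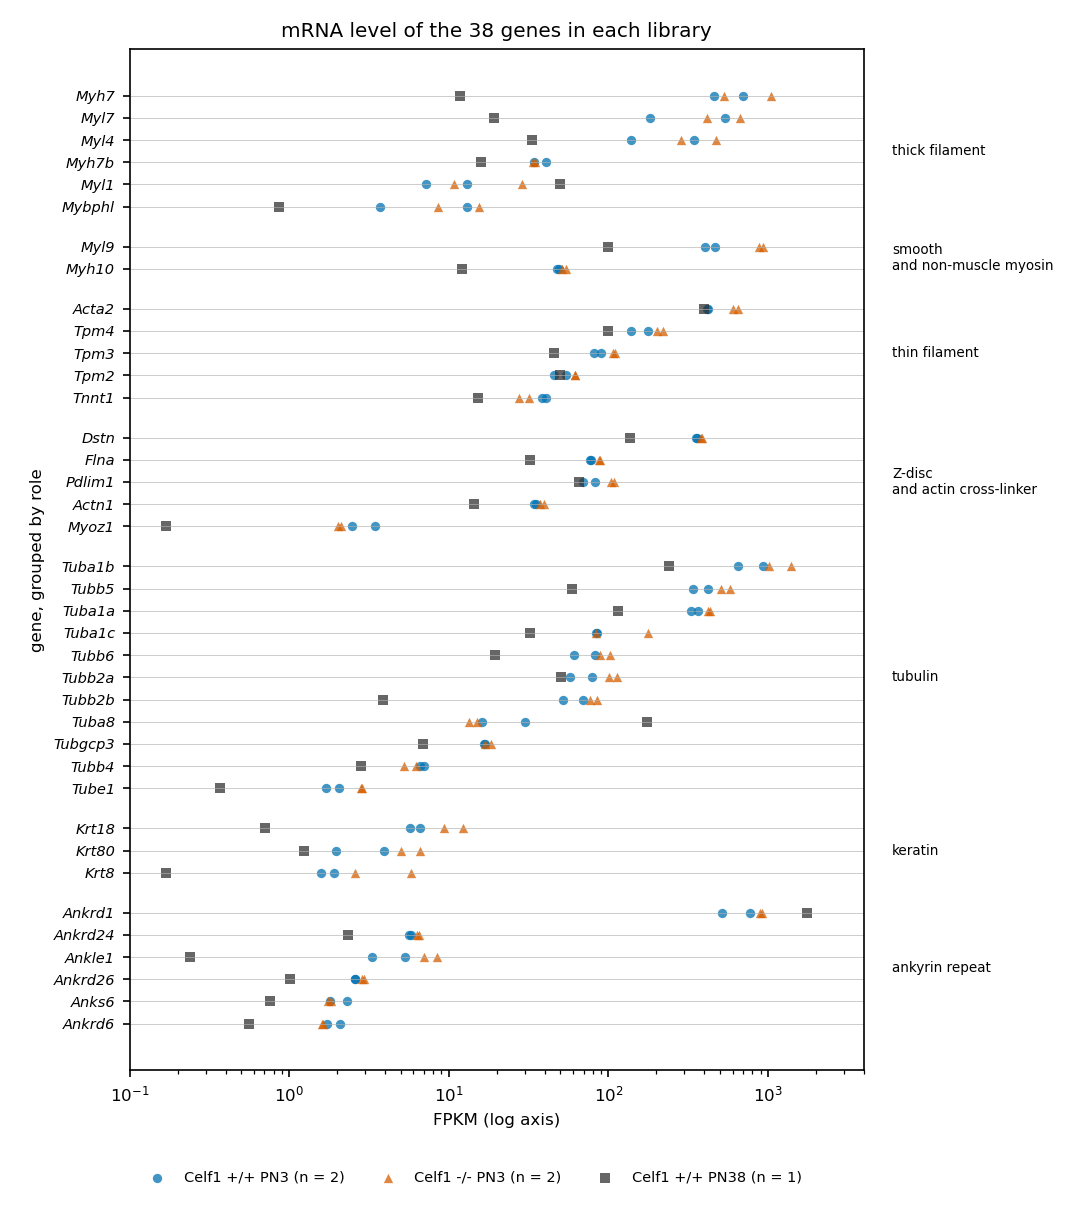
FPKM (log axis) of the 38 genes, grouped by role, in the 2 Celf1 +/+ (circles) and 2 Celf1 -/- (triangles) libraries at PN3 and the 1 Celf1 +/+ library at PN38 (squares). The square lies left of both circles in 34 genes and right of both in Tuba8, Myl1 and Ankrd1.

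Among the genes of the thick filament, Myh7, the beta-myosin heavy chain of the newborn ventricle (mm9, chr14:55589525-55613471, minus strand), measured 1039 and 531 FPKM in the Celf1 -/- libraries, 456 and 699 FPKM in Celf1 +/+ at PN3 and 11.8 FPKM at PN38. It was 48.8-fold lower at PN38, the largest ratio among the 38 members, and the genotypes overlapped at PN3. Myl7, the atrial regulatory light chain (mm9, chr11:5796640-5798785, minus strand), measured 416 and 665 FPKM in Celf1 -/-, against 181 and 539 FPKM in Celf1 +/+ and 19.3 FPKM at PN38. Myl4, the atrial essential light chain (mm9, chr11:104411977-104457067, plus strand), measured 285 and 471 FPKM, 139 and 345 FPKM, and 33.3 FPKM. Mybphl, a myosin-binding protein of atrial muscle, measured 8.51 and 15.5 FPKM, 3.73 and 13.0 FPKM, and 0.860 FPKM. In each of these 3 atrial genes replicate 2 was above replicate 1 in both genotypes, and all 4 PN3 libraries were above the PN38 library.

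The ratio of Myl7 to Myl4 in FPKM was 1.31 to 1.56 in the 4 PN3 libraries, although each gene varied widely between them, and 0.580 at PN38. Between the Celf1 +/+ replicates Myl7 differed by 1.57 on the log2 scale of FPKM, Myl4 by 1.31 and Mybphl by 1.80, while the median gene differed by 0.0990. Only 0.216%, 0.352% and 0.168% of 12498 genes differed more. The atrial marker list, of which all 10 genes had a name and 3 are members, showed the same order, with replicate 2 above replicate 1 in 9 of 10 genes in each genotype. Nppa was the exception in both. Sln, the atrial sarcolipin, measured 55.02 and 132 FPKM in Celf1 -/-, against 17.7 and 85.3 FPKM in Celf1 +/+ and 5.47 FPKM at PN38. Summed, the list measured 2671 and 3124 FPKM in Celf1 -/-, against 941 and 1497 FPKM in Celf1 +/+ and 985 FPKM at PN38, where Bmp10 was at 0. Nppa alone measured 1857 and 1763 FPKM in Celf1 -/-, against 559 and 453 FPKM in Celf1 +/+ at PN3. Nppa and Bmp10 were named through the PN3 listing, so their genotype difference is the one they were listed for. The other 8 genes of the list were listed for development, and all overlapped between genotypes. Nppa made up 912 of the 985 FPKM at PN38, and without it the other 9 genes summed to 814 and 1361 FPKM in Celf1 -/-, against 382 and 1044 FPKM in Celf1 +/+ and 73.5 FPKM at PN38. Myl7 and Myl4 themselves make up most of this sum in every library, so it is no separate check on them. Among the markers that are not members, Sln, Bmp10, Dkk3, Gja5, Nr2f1 and Nr2f2 moved with Myl7, Myl4 and Mybphl between replicates, and Nppa did not. The part of atrial RNA in the levels of these members was not tested.

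**Figure D2:**
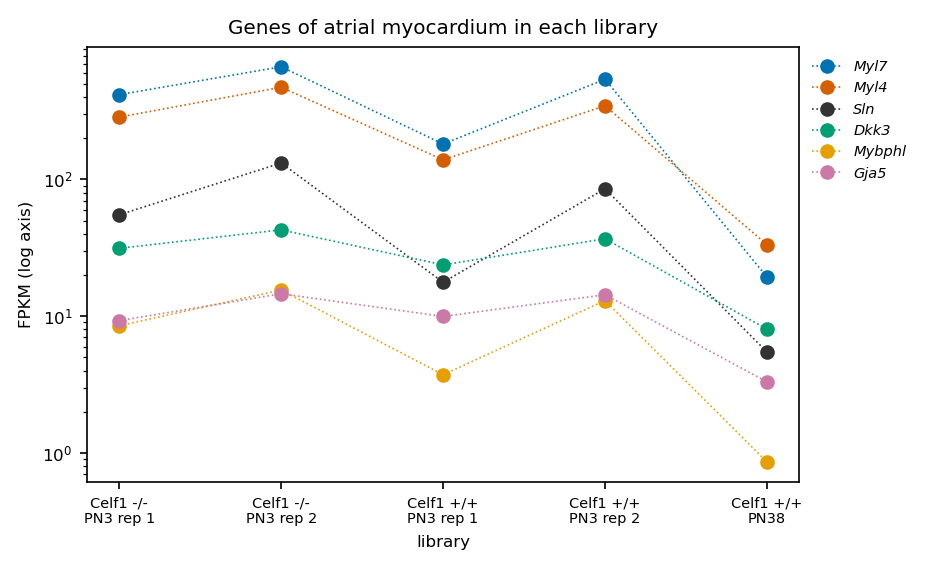
FPKM (log axis) of 6 of the 10 genes of atrial myocardium in each of the 5 libraries, with 1 point per library and dotted lines that only join the points of a gene. All 6 genes are higher in replicate 2 than in replicate 1 of each genotype at PN3, and lowest at PN38.

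None of the 5 thick filament genes that were not listed for PN3 passed the genotype test, which called 0.0560% of 12502 genes. For Myl7 the log2 fold change of Celf1 -/- over Celf1 +/+ was 0.62 (edgeR's quasi-likelihood test, adjusted p = 0.49, SE 0.509). For Myl4 it was 0.66 (SE 0.448, edgeR adjusted p = 0.41), for Mybphl 0.55 (SE 0.593, edgeR adjusted p = 0.60) and for Myh7 0.47 (SE 0.368, edgeR adjusted p = 0.47). These values rested on single libraries. Without Celf1 +/+ replicate 1 Myl7 stood at 0.04, Myl4 at 0.16, Mybphl at -0.09 and Myh7 at 0.21, and without Celf1 +/+ replicate 2 they stood at 1.58, 1.44, 1.69 and 0.79. Without Celf1 -/- replicate 1 they stood at 0.89, 0.96, 0.90 and -0.13, and without Celf1 -/- replicate 2 at 0.27, 0.28, 0.08 and 0.89. Myh7b, a slow-tonic myosin heavy chain, measured 33.6 and 34.8 FPKM in Celf1 -/-, against 34.3 and 40.9 FPKM in Celf1 +/+ and 15.9 FPKM at PN38. Its genotypes overlapped too, with a log2 fold change of -0.11 (SE 0.0995, edgeR adjusted p = 0.54).

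Promoters were taken from RefSeq (GRCm38.p6, 250 bases before to 50 bases after the annotated start), where 33 of the 38 members had an entry. Anks6, Myoz1, Krt80, Tubb2b and Tubb6 had none. The promoters of Myl7, Myl4 and Myl9 are printed because Myl7 and Myl4 kept a nearly constant ratio over the PN3 libraries, while Myl9 was the listed light chain with the clearest separation of the genotypes. Capitals mark matches to the CArG box, to CATTCC (the MCAT element, either strand) and to TATAAA (either strand). The sequences lie at chr11:5898733-5899032 on the minus strand for Myl7, chr11:104550413-104550712 on the plus strand for Myl4 and chr2:156775214-156775513 on the plus strand for Myl9.
Myl7: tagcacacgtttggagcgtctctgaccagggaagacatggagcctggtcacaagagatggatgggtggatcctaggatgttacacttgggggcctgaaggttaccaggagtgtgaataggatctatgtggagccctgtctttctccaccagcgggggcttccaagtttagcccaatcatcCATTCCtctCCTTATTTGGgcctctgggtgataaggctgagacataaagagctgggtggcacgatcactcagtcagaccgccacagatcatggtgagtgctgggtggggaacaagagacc
Myl4: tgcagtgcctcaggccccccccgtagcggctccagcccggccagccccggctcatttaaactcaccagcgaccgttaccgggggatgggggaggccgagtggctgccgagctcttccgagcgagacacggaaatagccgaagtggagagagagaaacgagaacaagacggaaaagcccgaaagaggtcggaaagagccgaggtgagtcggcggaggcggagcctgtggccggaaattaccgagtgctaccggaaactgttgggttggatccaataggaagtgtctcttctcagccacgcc
Myl9: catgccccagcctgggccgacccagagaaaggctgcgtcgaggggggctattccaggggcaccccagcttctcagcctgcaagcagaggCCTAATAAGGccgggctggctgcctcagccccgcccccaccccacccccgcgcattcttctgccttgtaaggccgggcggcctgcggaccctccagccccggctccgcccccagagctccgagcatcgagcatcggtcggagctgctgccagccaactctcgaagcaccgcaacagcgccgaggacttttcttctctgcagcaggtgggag

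Myl7 held a CArG box, the site read by serum response factor, that began 61 bases before the start, and a CATTCC that began 70 bases before it. Myl9 held a CArG box 161 bases before the start, and Myl4 held none of these letters in the window. A CArG box was present in 2 of the 33 member genes and in 1.63% of 32851 promoters. CATTCC was present in 9 of the 33 and in 14.7% of promoters, among them those of Acta2, Ankrd1, Myh7 and Myl1, and TATAAA in 4 of the 33 (Myl1, Tnnt1, Tubb2a and Krt8) and in 13.6%. The CArG box and CATTCC did not overlap in Myl7. A member gene was counted if any of its promoter entries held the match, whereas the percentages are of single promoters, so the measures are not alike. These are matches of letters and were not tested as sites.

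Myl1, the fast skeletal essential light chain (mm9, chr1:66970869-66991978, minus strand), moved the other way from the atrial light chains. It measured 28.9 and 10.8 FPKM in Celf1 -/-, against 7.19 and 12.95 FPKM in Celf1 +/+ at PN3 and 49.9 FPKM at PN38. The genotypes overlapped at PN3, with Celf1 -/- replicate 1 alone high, and without that library the log2 fold change of genotype went from 1.02 to 0.11, while it was 1.57 without replicate 2 and 1.48 without Celf1 +/+ replicate 2. The PN38 library was above all 4 PN3 libraries. In development Myl1 was not used for the listing and rose 4.95-fold, with a log2 fold change of 2.80 (edgeR's quasi-likelihood test, adjusted p = 0.011, SE 0.608). Of 11 skeletal muscle markers only Myl1 and Casq1, the skeletal calsequestrin, had a name. Casq1 measured 32.1 and 19.4 FPKM in Celf1 -/-, against 20.2 and 13.9 FPKM in Celf1 +/+ and 43.1 FPKM at PN38, again highest in Celf1 -/- replicate 1 at PN3 and above all PN3 libraries at PN38. The part of skeletal muscle RNA in the Myl1 level was not tested.

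The light chain of smooth and non-muscle myosin stood apart by genotype. Myl9 (mm9, chr2:156601156-156607394, plus strand) measured 883 and 929 FPKM in Celf1 -/-, against 463 and 402 FPKM in Celf1 +/+ at PN3 and 99.3 FPKM at PN38. Mean levels at PN3 were 906 ± 32.5 FPKM (SD, n = 2) and 432 ± 43.1 FPKM (SD, n = 2), a 2.10-fold difference with no overlap, which is the difference it was listed for. Its CArG box is printed above. Myh10, the heavy chain of non-muscle myosin IIB, measured 51.1 and 53.9 FPKM, 49.4 and 47.6 FPKM, and 12.0 FPKM, a 4.03-fold lower level at PN38. Both Celf1 -/- libraries lay above both Celf1 +/+ libraries, by a log2 fold change of 0.16 (SE 0.0643, edgeR adjusted p = 0.22).

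Among thin filament genes, Acta2, the smooth muscle alpha-actin that newborn cardiomyocytes also make (mm9, chr19:34315580-34329826, minus strand), measured 601 and 653 FPKM in Celf1 -/-, against 419.7 and 412.6 FPKM in Celf1 +/+ and 400.5 FPKM at PN38. Genotypes did not overlap at PN3, with a 1.51-fold difference. Of 8 smooth muscle markers 6 had a name, Acta2 and Myl9 among them, and the list summed to 1605 and 1706 FPKM in Celf1 -/-, against 982 and 916 FPKM in Celf1 +/+ and 622 FPKM at PN38, mostly through these members. The other 4 summed to 120.4 and 124 FPKM, 99.9 and 102 FPKM, and 122 FPKM. Of these, Tagln and Cnn1 were higher in both Celf1 -/- libraries, whereas Notch3 (17.7 and 20.6 FPKM against 18.9 and 19.5 FPKM) overlapped and Aoc3 (13.9 and 17.5 FPKM against 17.6 and 18.7 FPKM) was lower in both. Acta2, Myl9, Tagln and Cnn1 were listed for PN3, which is this difference, while Notch3 and Aoc3 were listed for development alone. The part of smooth muscle cells in the levels of Acta2 and Myl9 was not tested.

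From PN3 to PN38 Acta2 hardly differed in FPKM, with a ratio of 0.962, and stood 0.39 higher on the log2 scale in TMM-normalized counts (SE 0.0854, edgeR adjusted p = 0.012), which is short of the 2-fold limit and changes sign with the scale. Myl9, by contrast, was 4.35-fold lower at PN38, so that the 2 smooth muscle genes that were both higher in Celf1 -/- had unlike values in development.

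The 3 tropomyosin genes that were named, for coiled coils that lie along actin, were all listed for PN3 and all higher in Celf1 -/-. Tpm4 measured 220.0 and 203 FPKM in Celf1 -/-, against 176 and 138 FPKM in Celf1 +/+ and 99.8 FPKM at PN38. Tpm3 measured 109 and 106 FPKM, 89.9 and 81.2 FPKM, and 45.8 FPKM. For Tpm2, the beta form, the values were 61.9 and 62.2 FPKM, 54.7 and 45.4 FPKM, and 49.6 FPKM. None of the 3 overlapped between genotypes, and their folds, the differences they were listed for, were 1.24 to 1.34. In development Tpm3 stood at -0.47 on the log2 scale (SE 0.109, edgeR adjusted p = 0.014), short of the 2-fold limit, Tpm4 stood at -0.21 (SE 0.177, edgeR adjusted p = 0.33) and Tpm2 at 0.12 in TMM-normalized counts but -0.01 in FPKM (SE 0.181, edgeR adjusted p = 0.59). Without Celf1 +/+ replicate 1 the adjusted p of Tpm3 was 0.052. Within the sum of the 3 genes, Tpm2 took 15.8% to 17.1% of the FPKM at PN3 and 25.4% at PN38. Tropomyosins that were not named, Tpm1 among them, are not part of these shares.

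Tnnt1, slow skeletal troponin T (mm9, chr7:4456172-4467984, minus strand), was 1 of 5 members that were lower in both Celf1 -/- libraries, as 30.3% of all genes tested were. It measured 31.7 and 27.6 FPKM in Celf1 -/-, against 38.2 and 40.7 FPKM in Celf1 +/+ and 15.2 FPKM at PN38. All PN3 libraries were above the PN38 library, which was 2.59-fold below the Celf1 +/+ mean.

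Among the Z-disc and actin cross-linker genes, Actn1, Flna and Dstn had small genotype differences, with folds of 1.06 to 1.14. Pdlim1 (1.4-fold) and Myoz1 (0.694-fold), described below, differed more. Actn1, the non-muscle alpha-actinin, measured 37.4 and 39.5 FPKM in Celf1 -/-, against 34.0 and 35.4 FPKM in Celf1 +/+ and 14.3 FPKM at PN38. Flna, filamin A, measured 88.3 and 87.7 FPKM, 76.7 and 77.5 FPKM, and 32.3 FPKM. Dstn, the actin depolymerizing factor destrin, measured 378 and 384 FPKM, 361 and 355 FPKM, and 137 FPKM. Each was higher in both Celf1 -/- libraries, and none passed the test: the log2 fold changes were 0.17 for Actn1 (adjusted p = 0.20), 0.21 for Flna (adjusted p = 0.16) and 0.11 for Dstn (adjusted p = 0.35), all from edgeR. With DESeq2 the adjusted p of Flna was 0.023, short of the 1.5-fold limit.

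Myoz1, a calcineurin-binding Z-disc protein of fast muscle, went the other way by genotype. It measured 2.01 and 2.11 FPKM in Celf1 -/-, against 2.47 and 3.47 FPKM in Celf1 +/+ and 0.170 FPKM at PN38, and was lower in both Celf1 -/- libraries with a log2 fold change of -0.50 (SE 0.197, edgeR adjusted p = 0.21). Pdlim1, a PDZ and LIM domain protein that binds alpha-actinin and was listed for PN3, measured 109 and 103 FPKM, 82.1 and 69.6 FPKM, and 65.95 FPKM. From PN3 to PN38 it stood at 0.24 in TMM-normalized counts (SE 0.134, edgeR adjusted p = 0.16) and at -0.20 in FPKM.

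Tubulins were the largest group, with 10 tubulin genes and Tubgcp3. Tuba1b, a widely expressed alpha-tubulin, measured 1395 and 1015 FPKM in Celf1 -/-, against 927 and 649 FPKM in Celf1 +/+ and 241 FPKM at PN38. Tuba1a, the alpha-tubulin of developing neurons, measured 436 and 422 FPKM, 367 and 329 FPKM, and 115 FPKM. Tuba1c measured 83.4 and 176 FPKM, 84.9 and 84.2 FPKM, and 32.1 FPKM. The genotypes overlapped in Tuba1c alone, where only Celf1 -/- replicate 2 was high and the log2 fold change of genotype went from 0.63 to 0.02 without it and to 1.06 without replicate 1. These 3 genes lie within 106.7 kb (mm9, chr15:98761856-98868536).

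Tubb5, a widely expressed beta-tubulin (mm9, chr17:35970871-35975251, minus strand), measured 578 and 506 FPKM in Celf1 -/-, against 424 and 339.8 FPKM in Celf1 +/+ and 58.9 FPKM at PN38, 6.48-fold below the Celf1 +/+ mean at PN3. Tubb2b, the neuronal class II beta-tubulin, measured 84.5 and 76.85 FPKM, 68.9 and 51.9 FPKM, and 3.89 FPKM. Its near-identical neighbour Tubb2a, both within 56.1 kb (mm9, chr13:34166170-34222223), measured 114 and 101.4 FPKM, 78.7 and 57.7 FPKM, and 50.7 FPKM. At PN3 Tubb2b and Tubb2a were close, with ratios of 0.741 to 0.898, whereas at PN38 the ratio was 0.0768. Tubb2a did not pass the developmental test, at 0.01 in TMM-normalized counts and -0.43 in FPKM (SE 0.213, edgeR adjusted p = 0.96).

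RSEM splits a fragment that fits several genes, and the expected counts of Tuba1a, Tuba1b, Tuba1c, Tubb2a, Tubb2b, Myh7, Myh10 and Krt80 were not whole (by over 0.005) in any of the 5 libraries. Levels of these 8 genes depend on that split, and the levels of the near-identical tubulins are uncertain in that measure. The counts of Tuba8 were whole in every library.

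Tuba8, an alpha-tubulin of muscle and testis (mm9, chr6:121160752-121176872, plus strand), was the member with the largest rise. It measured 15.0 and 13.3 FPKM in Celf1 -/-, against 30.2 and 16.2 FPKM in Celf1 +/+ at PN3 and 175.9 FPKM at PN38. The PN38 library was far above all 4 PN3 libraries, 7.59-fold the Celf1 +/+ mean, with a log2 fold change of 3.37 (edgeR's quasi-likelihood test, adjusted p = 0.0011, SE 0.356). At PN3 both Celf1 -/- libraries lay below both Celf1 +/+ libraries, which is the difference it was listed for, and without Celf1 +/+ replicate 1 the log2 fold change of genotype went from -0.70 to -0.16, and without Celf1 +/+ replicate 2 to -1.09. In the summed FPKM of the 4 named alpha-tubulin genes Tuba8 took 0.776% and 0.818% in Celf1 -/-, 2.14% and 1.5% in Celf1 +/+ and 31.2% at PN38. Tuba1a, Tuba1b and Tuba1c, which make up the rest of this sum, were all listed for development. The share at PN38 is therefore set in part by the listing. Alpha-tubulins that were not named are not part of it.

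Among the 5 named beta-tubulin genes, Tubb5 took 64.2% to 65.7% of the summed FPKM in the PN3 libraries and 43.4% at PN38, while Tubb2a took 11.2% to 13.0% and then 37.3%, and Tubb2b 9.57% to 10.4% and then 2.87%. The make-up was thus much alike in the 4 PN3 libraries, although the sum differed, at 884 and 779 FPKM in Celf1 -/- but 660 and 517 FPKM in Celf1 +/+. At PN38 the sum was 136 FPKM. Of the 5 genes only Tubb2a was not listed for development, so the shift in shares at PN38 is set in part by the listing. Beta-tubulins that were not named are not part of these shares.

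**Figure D3:**
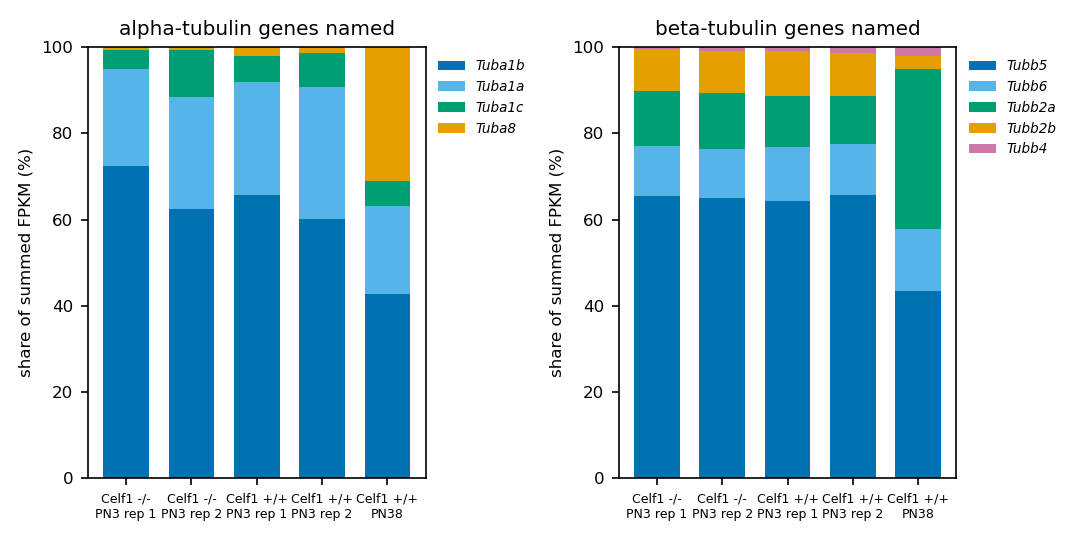
Share (%) of each gene in the summed FPKM of the 4 named alpha-tubulin genes (left) and the 5 named beta-tubulin genes (right), as 1 stacked bar per library. Tuba8 fills at most 2.14% of the alpha bar at PN3 and 31.2% at PN38, and Tubb2a fills 37.3% of the beta bar at PN38. All genes shown except Tuba8 and Tubb2a were listed for development, so the shares at PN38 are set in part by the listing.

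Of the remaining genes of this group, Tubb6, a beta-tubulin, measured 102 and 88.0 FPKM in Celf1 -/-, against 82.2 and 60.5 FPKM in Celf1 +/+ and 19.4 FPKM at PN38. Tubb4 (now Tubb4a) measured 5.27 and 6.23 FPKM, 6.6 and 6.96 FPKM, and 2.80 FPKM, and was the one tubulin not listed for PN3 that was lower in both Celf1 -/- libraries. Tubgcp3, a subunit of the complex that nucleates microtubules, measured 18.4 and 16.9 FPKM, 16.6 and 16.8 FPKM, and 6.93 FPKM. Tube1, epsilon-tubulin of the centriole (mm9, chr10:38853829-38870864, plus strand), measured 2.84 and 2.81 FPKM, 2.06 and 1.69 FPKM, and 0.370 FPKM.

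Of the 6 genes of this group that were not listed for PN3, 5 were higher in both Celf1 -/- libraries, an order that 26.8% of all genes tested had, and none was called. Tube1 came nearest, 1.51-fold higher in Celf1 -/-, with a log2 fold change of 0.63 (edgeR's quasi-likelihood test, adjusted p = 0.13, SE 0.155). It passed with edgeR's exact test (adjusted p = 0.045) and with DESeq2 (adjusted p = 0.014), and over all alternatives its adjusted p ran from 0.014 to 0.46. For Tuba1a the log2 fold change was 0.32 (SE 0.0896, edgeR adjusted p = 0.15, DESeq2 adjusted p = 0.014), short of the 1.5-fold limit, for Tubb2b 0.44 (SE 0.160, edgeR adjusted p = 0.20), for Tubb6 0.43 (SE 0.178, edgeR adjusted p = 0.22) and for Tubb4 -0.22 (SE 0.105, edgeR adjusted p = 0.27).

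Markers of dividing cells, all 10 of them named, did not overlap and were higher in Celf1 -/- in 10 of 10, higher in Celf1 +/+ replicate 1 than in replicate 2 in 10 of 10, and lowest at PN38. They summed to 476 and 536 FPKM in Celf1 -/-, against 384.5 and 279 FPKM in Celf1 +/+ and 16.4 FPKM at PN38. All 10 were listed for both contrasts, so their direction is not independent of the listing. Tuba1b, Tubb5, Tubb6, Tubb2a, Tubb2b, Tuba1a and Tube1 had the same order of the 2 Celf1 +/+ replicates and of the genotypes. Members outside the tubulins, such as Tpm4, Pdlim1 and Ankrd1, had both orders too. Between the Celf1 -/- replicates, 9 of 10 markers were higher in replicate 2, whereas the tubulins just named were all higher in replicate 1. The part of dividing cells in the levels of these tubulins was not tested.

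Keratins were low, and all 3 were listed for both contrasts. Krt18 measured 9.32 and 12.2 FPKM in Celf1 -/-, against 5.68 and 6.64 FPKM in Celf1 +/+ and 0.710 FPKM at PN38. Krt8, its partner in filaments of simple epithelia, measured 2.60 and 5.81 FPKM, 1.59 and 1.92 FPKM, and 0.170 FPKM. Krt80 measured 6.58 and 5.03 FPKM, 3.91 and 1.96 FPKM, and 1.23 FPKM. No keratin overlapped between genotypes, and Krt8 differed between the Celf1 -/- replicates by 1.16 on the log2 scale of FPKM. Krt8 and Krt18 lie within 35.3 kb (mm9, chr15:101827142-101862457), and their ratio, Krt18 over Krt8, was 3.46 to 3.58 in 3 of the PN3 libraries and 2.10 in Celf1 -/- replicate 2. Of 10 epithelial or lung markers only the keratins and Scgb3a2, a secretoglobin of airway cells, had a name. Scgb3a2, which was listed for PN3, measured 1.52 and 7.0 FPKM in Celf1 -/-, against 0.05 and 0.12 FPKM in Celf1 +/+ and 0 at PN38. Like Krt8 and Krt18 it was highest in Celf1 -/- replicate 2, whereas Krt80 was highest in Celf1 -/- replicate 1. The part of epithelial RNA in the keratin levels was not tested.

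Of the ankyrin-repeat genes Ankrd1, the cardiac ankyrin repeat protein that binds titin in the I-band and also enters the nucleus (mm9, chr19:36186455-36194334, minus strand), was by far the highest expressed. It measured 912 and 898 FPKM in Celf1 -/-, against 777 and 512 FPKM in Celf1 +/+ at PN3 and 1768 FPKM at PN38. The genotypes did not overlap, and PN38 was above all PN3 libraries. From PN3 to PN38 in Celf1 +/+ it rose 2.74-fold, with a log2 fold change of 1.90 (edgeR's quasi-likelihood test, adjusted p = 0.0020, SE 0.247). Its genotype difference, for which it was listed, went from 0.51 to 0.85 on the log2 scale without Celf1 +/+ replicate 1 and to 0.22 without replicate 2.

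The other 5 ankyrin-repeat genes stayed below 10 FPKM. Ankle1, a LEM-domain endonuclease of blood-forming cells that was listed for both contrasts, measured 8.38 and 7.03 FPKM in Celf1 -/-, against 5.35 and 3.31 FPKM in Celf1 +/+ and 0.240 FPKM at PN38. Ankrd24 measured 6.51 and 6.33 FPKM, 5.63 and 5.80 FPKM, and 2.32 FPKM. Ankrd26 measured 2.84 and 2.96 FPKM, 2.60 and 2.58 FPKM, and 1.01 FPKM. All 3 were higher in both Celf1 -/- libraries. Ankrd6, a protein of Wnt signalling, was lower in both, at 1.61 and 1.62 FPKM against 2.08 and 1.72 FPKM, and measured 0.560 FPKM at PN38. Anks6, a protein of the primary cilium, overlapped, at 1.83 and 1.76 FPKM against 1.79 and 2.30 FPKM, and measured 0.760 FPKM at PN38. None of the 4 genes not listed for PN3 passed the genotype test, with log2 fold changes of 0.20 for Ankrd24, 0.22 for Ankrd26, -0.22 for Ankrd6 and -0.17 for Anks6 and adjusted p of 0.19 to 0.54 from edgeR.

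**Figure D4:**
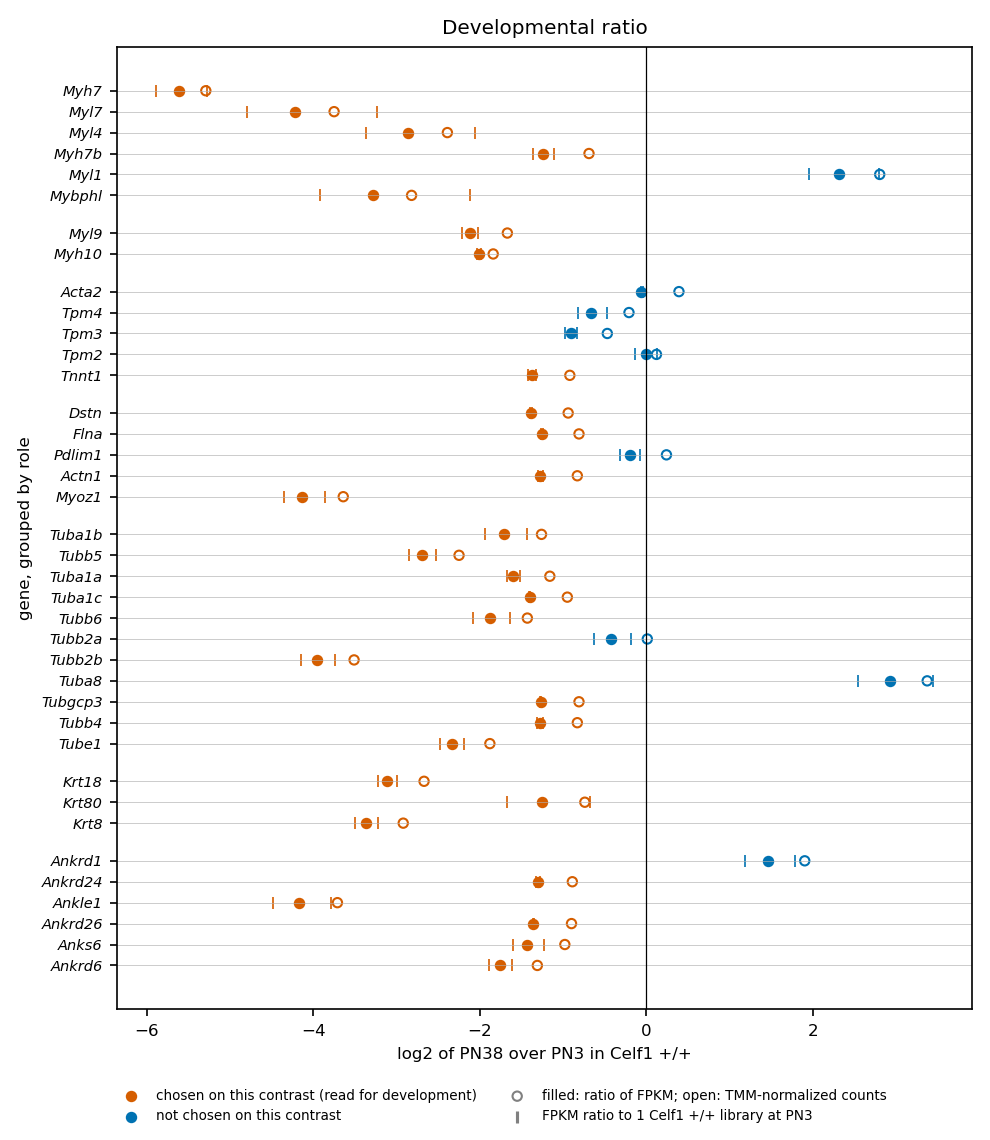
Log2 ratio of the Celf1 +/+ PN38 library (n = 1) to Celf1 +/+ at PN3 (n = 2) for each gene, grouped by role, as the ratio of mean FPKM (filled), the same in TMM-normalized counts (open) and the FPKM ratio to each single PN3 library (bars). Genes chosen on this contrast (orange) all lie left of 0, while Tuba8, Myl1 and Ankrd1 lie right of 0 by either measure.

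For development, 9 members were listed for PN3 alone and could be tested, and all had enough FPKM to be tested. Tuba8, Myl1 and Ankrd1 rose and none fell at an adjusted p under 0.05 and a 2-fold ratio of FPKM, while 29.7% of the 12816 genes tested were called, 7.33% higher and 22.4% lower. The share was 29.6% with DESeq2 and 30.0% with the exact test, which called the same 3 members. By the fold in TMM-normalized counts, 12.8% were higher and 11.4% lower. Since strong fallers would have been read in the developmental listing, the count of 0 lower is set in part by the rule. At an unadjusted p under 0.05 the count was 5 of 9, against 67.9% of all genes. The median log2 fold change of the 9 was 0.24 in TMM-normalized counts and -0.06 in FPKM, against -0.02 and -0.46 over all genes, and it too is set in part by the rule, which left out strong fallers and used the same Celf1 +/+ libraries.

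At PN3, 20 members were listed for development alone, and their genotype difference was tested. None was called by edgeR's quasi-likelihood test at an adjusted p under 0.05 and a 1.5-fold ratio of FPKM, where 0.0560% of 12502 genes were called (7 genes). The exact test of edgeR and DESeq2 each called 1 of the 20, Tube1, and 2.74% and 2.96% of all genes. At an unadjusted p under 0.05 the count was 8 of 20, against 23.6% of all genes: Tube1, Tuba1a, Flna, Ankrd24, Tubb2b, Actn1 and Ankrd26 were on the higher side and Myoz1 on the lower. Both Celf1 -/- libraries lay above both Celf1 +/+ libraries in 11 of 20 and below in 3 of 20, against 26.8% and 30.3% of all genes. The median log2 fold change was 0.20, where that of all genes was 0.00. These 20 are the members that the PN3 listing left out, and their developmental listing used the same Celf1 +/+ libraries, so their counts are not independent of either choice.

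**Figure D5:**
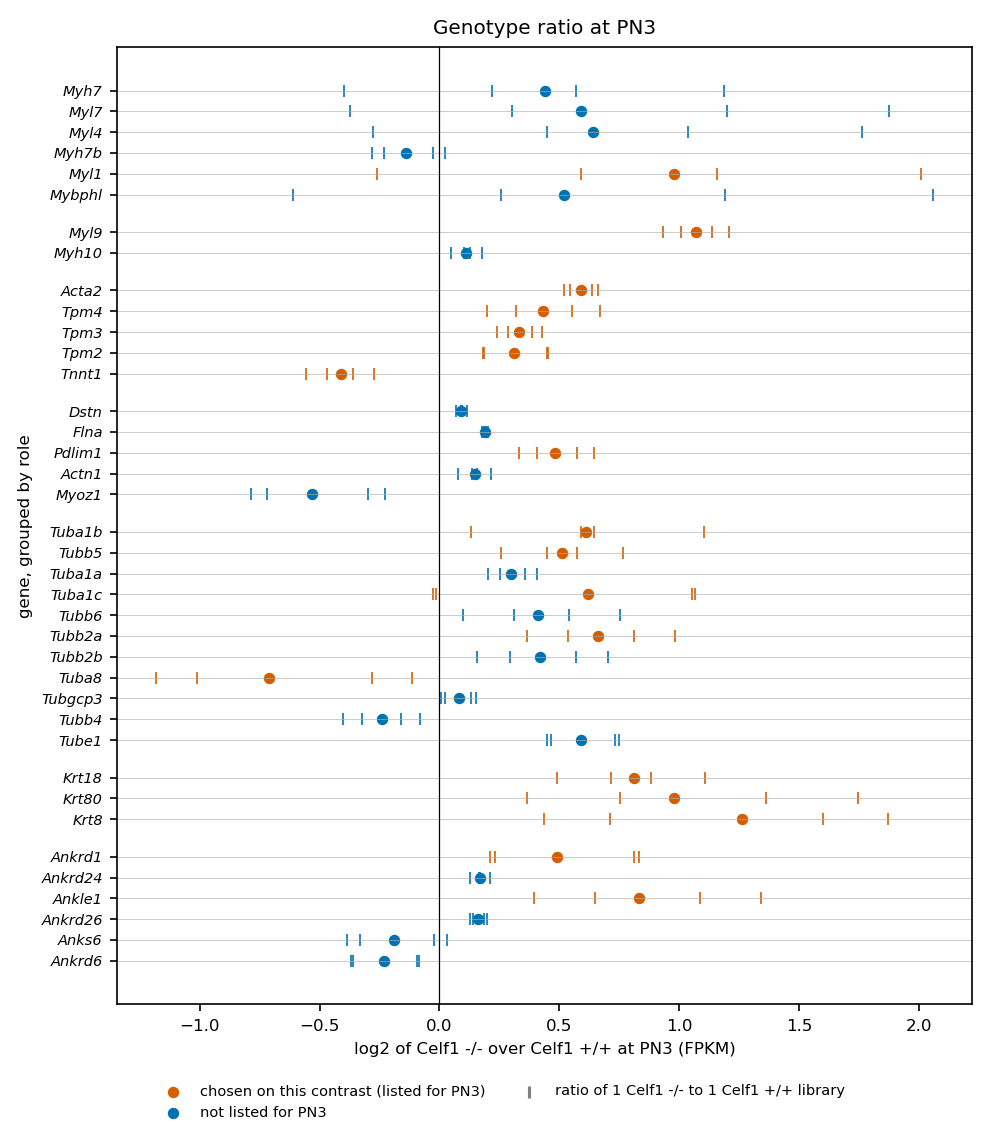
Log2 ratio of Celf1 -/- to Celf1 +/+ FPKM at PN3 for each gene, grouped by role, with the ratio of means (points, n = 2 and 2) and the 4 ratios of single libraries (bars). Genes listed for this contrast (orange) include Myl9 and the keratins at the right and Tuba8 and Tnnt1 left of 0, and the bars of all 6 thick filament genes span 0.

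Over all 38 members, the genotypes did not overlap in 30, with Celf1 -/- above in 25 and below in 5 (Tnnt1, Tuba8, Tubb4, Myoz1 and Ankrd6), where 26.8% and 30.3% of all genes tested were above and below. Since 18 of the 38 were listed for this difference, the members' counts are set in part by the listing, also by role. The 5 named genes of the ventricular list were lower in both Celf1 -/- libraries, and the part of the make-up of the tissue in the members' differences was not tested. By role, Celf1 -/- was above in 0 of 6 thick filament genes, 2 of 2 genes of smooth and non-muscle myosin, 4 of 5 thin filament genes, 4 of 5 Z-disc and cross-linker genes, 8 of 11 tubulin genes, 3 of 3 keratins and 4 of 6 ankyrin-repeat genes. All 6 thick filament genes overlapped between genotypes.

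Of 91 further genes of the sarcomere and cytoskeleton, 28 had a name. In development 13 of these could be tested, and 5 rose and 2 fell, where 7.33% and 22.4% of all genes tested did. None of the 13 had been read in the developmental listing, which took the strong fallers, so these counts are set in part by the listing. By the fold in TMM-normalized counts 6 were higher, Tagln among them (log2 fold change 1.29), and 0 lower, since Capza1 and Tagln2 stood at -0.73 and -0.57. Tcap, a titin cap at the Z-disc, rose 4.23-fold (log2 fold change 2.53, SE 0.0730, edgeR adjusted p = 1.8e-04), and Xirp2, an actin-binding protein of the intercalated disc, rose 24.1-fold (4.88, SE 0.320, edgeR adjusted p = 3.4e-04). Casq1, Sgca, a sarcoglycan, and Synm, the intermediate filament protein synemin, rose 2.53-fold, 2.18-fold and 2.32-fold. Capza1, an actin capping subunit, and Tagln2, a transgelin, fell to 0.444 and 0.496 of their PN3 level in FPKM. At PN3, 6 could be tested for genotype and none was called, with adjusted p of 0.18 to 0.72 from edgeR. The 28 are also genes that the study tested as changed, and Tcap and Xirp2 were lower in both Celf1 -/- libraries by the contrast for which they were listed.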

How the data were processed

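Polyadenylated RNA was sequenced in paired ends, and the authors used TopHat for alignment to mm9 and RSEM for gene levels (1.2.4, per the submitters' processing notes). The deposited expected counts are fragments assigned to each gene, not normalized, with fragments that fit several genes split between them. Deposited FPKM are those counts scaled to effective length and to the library's total. The deposited TPM and length columns were not used here for tests. The methods name Ensembl models, whereas UCSC transcripts are listed, and the labels state no strand.

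edgeR 4.0.16 (R 4.3.3, limma 3.58.1) was run on expected counts rounded to whole numbers, with TMM normalization, glmQLFit, glmQLFTest and Benjamini-Hochberg adjustment over all genes tested. Genotype was fitted on the 4 PN3 libraries, over genes that reached 1 FPKM in each replicate of either genotype. Development was fitted on all 5, over genes that reached 1 FPKM in the PN38 library or in each Celf1 +/+ PN3 library. Calls needed an adjusted p under 0.05 and a ratio of mean FPKM of 1.5 for genotype or 2 for development. Alternatives were DESeq2 1.42.0, edgeR's exact test, no filter, other sets of libraries, folds from TMM-normalized counts or FPKM, a replicate block and leaving out each library. All 38 members were named in the text, grouped by role, and all 38 matched 1 protein coding gene of GENCODE vM1 (mm9). Members and lists were chosen with earlier results of these data known, and 1 gene of the lists is not reported here. Total expected counts were 108044284 to 139769909 per library. Python 3.11.15, pandas 2.3.3, numpy 2.4.6 and matplotlib 3.10.9 were used.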

Additional observations from a re-analysis of the deposited data

How the results depend on the processing

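For genotype at PN3, the count of called members among the 20 tested was 0 in the reported fit and 1 with DESeq2 and 1 with edgeR's exact test, Tube1 in each, and 0 under the other alternatives. The median log2 fold change of the 20 ran from 0.15 to 0.20 with each library left out. For development, 3 members were called under every alternative, Tuba8, Myl1 and Ankrd1. The median of the 9 tested members was 0.24, ran from 0.11 to 0.39 with a library left out, and turned to -0.06 with the fold from FPKM, where the median of all genes was -0.46. With a replicate block 0 members were called for genotype and 3 for development, with medians of 0.20 and 0.25. The samples share only a number, since the labels give no shared litter and there are 2 pairs (correlation of deviations 0.192). Among single members, 198 of 200 tested values for genotype kept their call, made on adjusted p and fold together, and 2, both of Tube1, gained it. For development 90 of 90 kept theirs. The adjusted p alone crossed 0.05 for Flna (0.023) and Tuba1a (0.014) with DESeq2, for Pdlim1 with the replicate block (0.049) and for Tpm3 without Celf1 +/+ replicate 1 (0.052). Of values given with no test, 173 of 180 for genotype and 255 of 290 for development moved by less than the spread between replicates.

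PN38 has 1 library, which could not be left out, and leaving out a PN3 library leaves a genotype with 1 that is assumed to vary like the others. Names came only from genes tested as changed, so families are incomplete.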
